A study of Mus musculus with 6 samples.

Results

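Kupffer cells are the resident macrophages of the liver, and 9 genes that mark them were examined in hepatic mRNA: *Cd5l*, *Clec4f*, *Vsig4*, *Marco*, *Csf1r*, *Cd68*, *Adgre1*, *Cd163* and *Timd4*. They were chosen by symbol as known markers of these cells, with earlier results of these data known. Whether other cells of these livers also express them was not tested. All 9 were among the 24421 genes of the deposited table, each with a mean normalized count above 10. Of all genes in that table, 12971 were above 10. RNA-seq was performed on livers of 3 WT and 3 *Pai-1*+/- mice of the C57BL/6 strain, 21 weeks old by the labels. The study's text gives a slightly lower age for this cohort. By the study's account the mice were C57BL/6 J, male and on a standard chow (SC) diet, with free access to food. The *Pai-1*+/- mice carry 1 null copy of the gene for plasminogen activator inhibitor 1 (PAI-1) in all cells and came from crosses of *Pai-1*-/- with WT mice, so the model does not single out any liver cell type. The study used this cohort to ask whether changes in hepatic gene expression seen with a drug against PAI-1 could stem from effects of the drug on other targets.

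The value used here for each gene is the authors' mean normalized count, which averages WT and *Pai-1*+/- libraries together. Whole-number counts per animal carry animal numbers that match no sample label, so the 6 columns were assigned to no genotype and were not used here. The authors' own fold changes and p-values were not used either. Genotypes are therefore not compared, values per mouse and their SD are not given, and the depth of each library was not analysed here. The mean normalized counts sum to 30045982, of which the 10 highest genes hold 16.8%. Levels of the 9 genes and their order below are a description of these pooled livers with no test, and whether neighbours in the order differ beyond the spread between mice was not tested.

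Kupffer cells line the liver sinusoids, where they take up bacteria, complement-coated particles, dying cells and old red cells from portal blood. Their survival depends on signalling through CSF1R, a receptor tyrosine kinase with CSF1 and IL-34 as its ligands. Under steady conditions they arise largely from embryonic precursors and renew themselves in the tissue, and monocytes that replace lost cells gain *Clec4f* early and *Timd4* late. In whole liver, the number of Kupffer cells and the amount of each mRNA per cell cannot be told apart.

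Transcripts of the 9 genes are read out from loci on 7 chromosomes, with *Clec4f* and *Cd163* both on chromosome 6 and *Cd68* and *Timd4* both on chromosome 11. On GRCm38 (mm10) with the GENCODE M21 annotation, *Cd5l* lies at chr3:87357881-87371073 on the plus strand and *Clec4f* at chr6:83644542-83656187 on the minus strand. *Vsig4* lies at chrX:96247203-96293438, *Marco* at chr1:120474538-120505024 and *Cd68* at chr11:69664213-69666153, all on the minus strand. On the plus strand lie *Csf1r* at chr18:61100598-61132149, *Adgre1* at chr17:57358691-57483527, *Cd163* at chr6:124304656-124330527 and *Timd4* at chr11:46810800-46844332. All 9 are protein-coding, and their merged exons span from 1257 bases in *Cd68* to 5774 bases in *Csf1r*. Only *Csf1r* shares annotated exon sequence with another gene, 873 bases with *Hmgxb3* on the opposite strand. *Hmgxb3* had a mean normalized count of 437, and reads in the shared bases cannot be told apart between these genes if strand was not used in counting, a setting not given in the sources used here.

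Because a long transcript yields more reads than a short one at equal abundance, genes were compared on a length-scaled level. It is the mean normalized count divided by the length of the merged exons, scaled so that the values of all genes with a length sum to 1000000, the TPM scale. On this scale the 9 markers ranged 14.6-fold, from 7.43 TPM for *Timd4* to 109 TPM for *Cd5l*. Their median was 18.1 TPM, which is the level of *Csf1r*. The median was 8.82 over the 12499 genes above a mean normalized count of 10 that have a length. The length-scaled level was above that median gene for 7 of the 9 markers.

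The secreted and lectin members stood at the top. *Cd5l*, which encodes a soluble scavenger receptor cysteine-rich protein released by tissue macrophages and carried in blood with IgM, had a mean normalized count of 2374 and a length-scaled level of 109 TPM, 12.3 times the median gene. It ranked at position 1020 of the 12499 genes. *Clec4f*, a galactose-binding C-type lectin found in mouse almost exclusively on Kupffer cells, had a mean normalized count of 1816 and a level of 68.6 TPM, 7.77 times the median gene. These genes held the first and second place of the list on each of the 3 length definitions tried and without length. *Vsig4*, the complement receptor CRIg that captures particles coated with C3 fragments, had a mean normalized count of 656 and a level of 41.3 TPM. The summed level of the 9 genes was 305 TPM, and *Cd5l*, *Clec4f* and *Vsig4* supplied 71.7% of it.

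**Figure D1:**
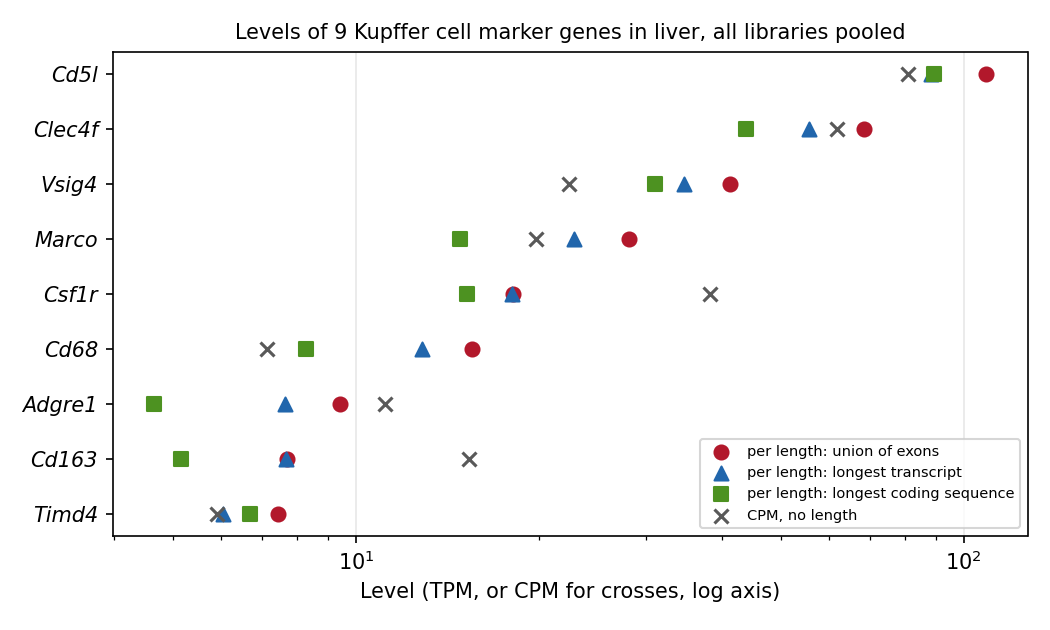
Level of each of the 9 Kupffer cell marker genes (rows) on a log axis, from the authors' mean over all libraries. Length-scaled symbols are in TPM, with 3 symbols for 3 definitions of gene length. A cross marks CPM, the mean normalized count without length, scaled to a total of 1000000 over the genes with a length. *Cd5l* and *Clec4f* are highest by every symbol, and the cross of *Csf1r*, at 38.3 CPM, lies far to the right of its length-scaled level of 18.1.

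Receptors for particles and growth factor formed the middle of the order. *Marco*, a class A scavenger receptor for bacteria and modified lipoproteins, had a mean normalized count of 580 and a length-scaled level of 28.1 TPM. *Csf1r* had the third highest mean normalized count of the list, 1121, but the longest merged exons, and its length-scaled level of 18.1 TPM put it below *Marco*. Its place thus depends on the treatment of length, since without length it stood above *Vsig4* and *Marco*, at 38.3 CPM beside 22.4 and 19.8. With the longest coding sequence as the length, *Csf1r* was also slightly above *Marco*, 15.2 beside 14.8 TPM. *Cd68*, a heavily glycosylated protein of late endosomes and lysosomes, had the shortest exons of the list, a mean normalized count of 209 and a length-scaled level of 15.5 TPM. Without length it moved the other way, to 7.13 CPM, below *Cd163* (15.4) and *Adgre1* (11.2).

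Lowest on the length-scaled level were *Adgre1*, *Cd163* and *Timd4*. *Adgre1*, the adhesion G protein-coupled receptor whose product is the F4/80 antigen, had a mean normalized count of 327 and a level of 9.43 TPM, 1.07 times the median gene. *Cd163*, the receptor that clears haemoglobin bound to haptoglobin, followed with a mean normalized count of 450 and 7.69 TPM, and *Timd4*, a phosphatidylserine receptor for dying cells, with 173 and 7.43 TPM. These 3 genes lay within 1.27-fold of each other, and their order changed with the length used. With the longest coding sequence the order was *Timd4* at 6.68, *Cd163* at 5.14 and *Adgre1* at 4.65 TPM. Of the 36 pairs that can be formed from the 9 genes, 32 kept their order under the 3 length definitions and 29 also without length.

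**Figure D2:**
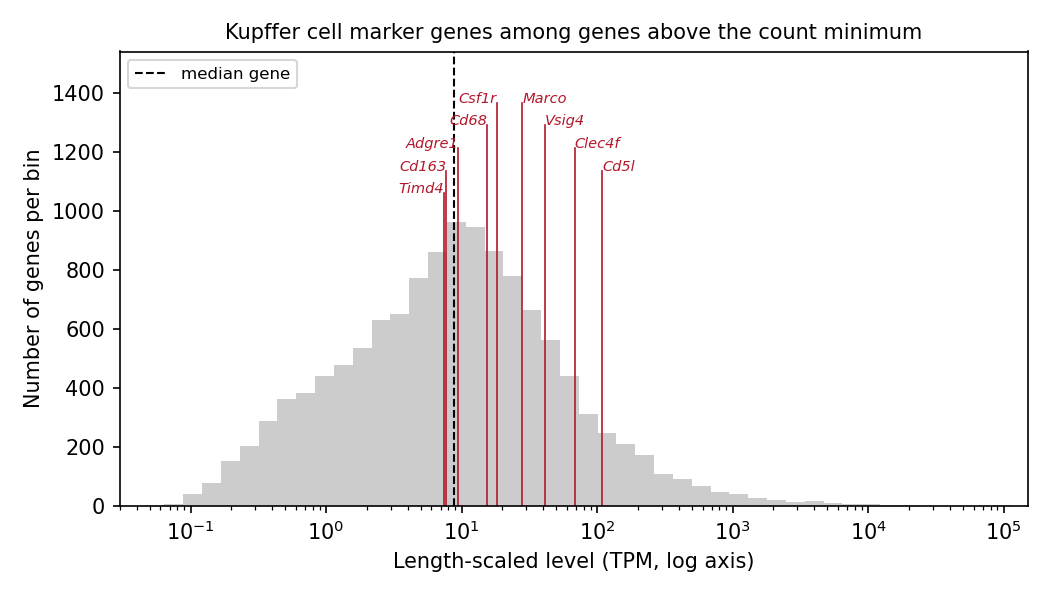
Histogram of the length-scaled level (TPM, log axis) of the 12499 genes above a mean normalized count of 10, with a red line for each Kupffer cell marker gene and a dashed line at the median gene (8.82 TPM). The markers run from percentile 46.2 (*Timd4*) to percentile 91.8 (*Cd5l*), and *Timd4* and *Cd163* fall just below the median.

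Ligands and transcription factors of these cells were listed alongside the markers, and all 8 reported here had a mean normalized count above 10. *Csf1*, a ligand of CSF1R, had a length-scaled level of 6.00 TPM, and *Il34*, the other ligand, 1.71 TPM. The receptor gene *Csf1r* was thus 3.02 times *Csf1* and 10.6 times *Il34* on this scale. Among transcription factors, *Nr1h3* (LXRα) had a level of 87.6 and *Id3* 40.3 TPM, while *Spi1*, which encodes the macrophage factor PU.1, had 4.16, *Irf8* 2.39, *Zeb2* 1.28 and *Spic* 0.977 TPM. *Nr1h3* and *Id3* are also expressed by other liver cells, hepatocytes and endothelial cells among them, so these levels are not those of Kupffer cells alone. The median of these genes was 3.28 TPM, and that of the marker list was 5.53 times as high.

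Further macrophage genes reached lower than the markers and had a higher median. All 12 listed had a mean normalized count above 10, with a median length-scaled level of 46.9 TPM and a range from 2.68 for *Fcgr1* to 78.5 for *C1qa*. *C1qa*, *C1qb* and *C1qc*, whose products assemble into the C1q recognition molecule of complement, had 78.5, 70.8 and 42.8 TPM, within 1.83-fold of each other. *Mpeg1*, which encodes the pore-forming protein perforin-2, had 51.0, the lysozyme gene *Lyz2* 65.6 and the cysteine protease gene *Ctss* 55.6 TPM. *Slc40a1*, the iron exporter ferroportin, had 55.8 TPM and is also expressed outside macrophages, and *Mrc1*, at 17.3 TPM, is a gene of liver endothelium too. *Clec1b* and *Folr2*, both found on Kupffer cells, had 4.13 and 9.20 TPM, in the range of or below *Timd4* and *Adgre1*.

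Markers of other blood cells had lower medians than the Kupffer cell list, though single genes reached the lower Kupffer cell markers. For 6 monocyte genes the median length-scaled level was 0.779 TPM, with that of the Kupffer cell markers 23.3 times as high, and 5 of the 6 had a mean normalized count above 10. *Ccr2* and *Ly6c2*, which define inflammatory monocytes, had 0.555 and 0.305 TPM, whereas *Fcgr4* had 8.34, above *Cd163* and *Timd4*. *Clec4f* was 124 times *Ccr2*, *Timd4* was 13.4 times *Ccr2*, and *Adgre1* was 9.72 times *Itgam*, the integrin gene of monocytes and neutrophils. The 6 neutrophil genes with a value had a median of 1.95 TPM and 3 of them a mean normalized count above 10, with *S100a9* highest at 12.8 TPM, above *Adgre1*, *Cd163* and *Timd4*, and *S100a8* at 7.41 TPM beside 7.43 for *Timd4*. The 8 lymphocyte genes had a median of 0.731 TPM. None of the genes on these lists that have a value was at 0. Per the study's methods, livers were flushed with cold saline before RNA was taken, so these are not levels of unflushed liver. The effect of flushing on blood cell transcripts was not tested. These comparisons concern mRNA levels in pooled tissue and give no cell numbers.

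Among 8 cell type lists, which include the monocyte, neutrophil and lymphocyte lists above, the Kupffer cell list stood second by median, below the hepatocyte list. The other lists are of resident liver cells. The further macrophage genes, with a higher median of 46.9 TPM, and the ligands and transcription factors were left out of this ranking. The hepatocyte list had a median of 5044 TPM, led by the albumin gene *Alb* at 85889 TPM, 789 times *Cd5l*. A single hepatocyte gene, *Ass1*, had 1.33 TPM, far below the other 7. Its mean normalized count was 34.5, beside 136698 for *Cps1*. Whether reads of *Ass1* were fully counted was not tested, so this value may not be its mRNA level. The median was 12.3 TPM for 10 endothelial cell genes, 7.31 for 8 stellate cell genes and 3.58 for 5 cholangiocyte genes. Endothelial levels ran from 5.43 for *Tek* to 34.7 for *Clec4g*. The stellate list had a wider range, from 3.35 for *Des* to 100.2 for *Ecm1*, which other liver cells express as well. The second place of the Kupffer cell list passed to the stellate list (17.1 beside 14.8 TPM) when the longest coding sequence was used as the length, and to the endothelial list (26.0 beside 19.8 CPM) without length.

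**Figure D3:**
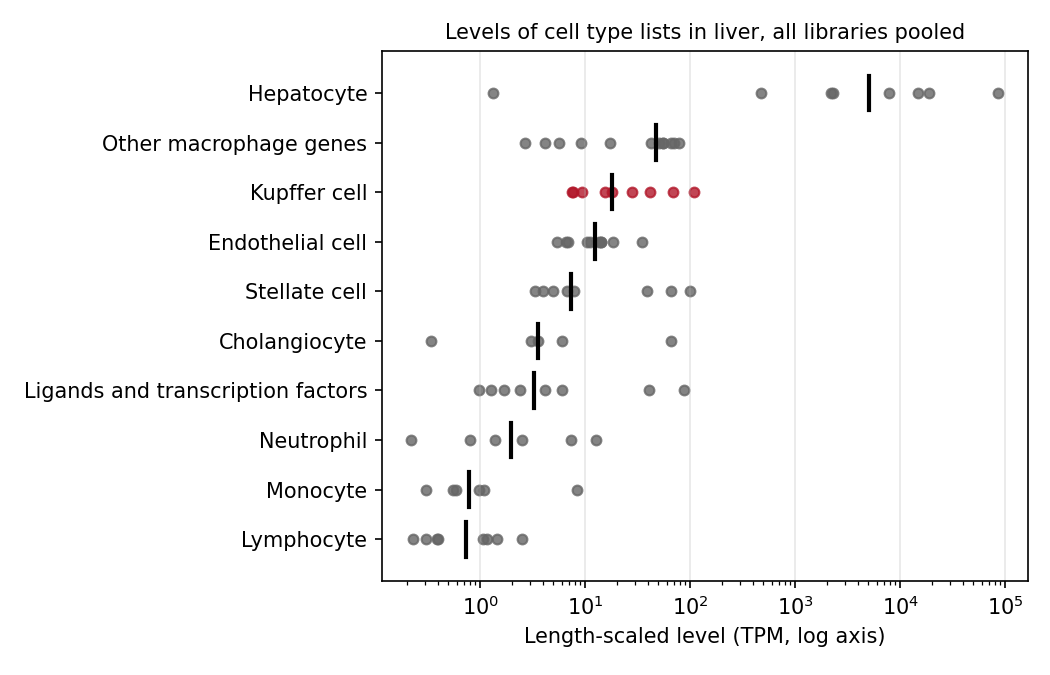
Length-scaled level (TPM, log axis) of each gene (points) in 10 lists of liver and blood cell genes, with a black bar at the median of each list and the Kupffer cell markers in red. The Kupffer cell markers lie between 7.43 and 109 TPM, above all lymphocyte genes and below 7 of the 8 hepatocyte genes.

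Genes related in structure to the markers were also read, chosen outside the rule for named genes. The relatives ran from far below to well above their markers. *Cd5* and *Cd6*, surface receptors of T cells with the same cysteine-rich domains as *Cd5l*, had 0.0658 and 0.0451 TPM. Their mean normalized counts were only 3.47 and 3.85. Those of *Havcr1*, *Cd163l1* and *Clec10a*, given below, were also under 10, and the precision of such low levels was not estimated. *Havcr1* and *Havcr2*, the neighbours of *Timd4* in the TIM family, had 0.0405 and 0.490 TPM, and *Cd163l1*, a relative of *Cd163*, had 0.0385, while *Dmbt1*, another gene with such domains, had 11.8 beside 7.69 for *Cd163*. *Flt3*, a receptor tyrosine kinase of the same class as *Csf1r*, had 0.165 and *Kit* 1.65 TPM, beside 18.1 for *Csf1r*. *Cd207*, the langerin gene related to *Clec4f*, had 8.81 TPM, so *Clec4f* was 7.78 times as high, and *Clec10a* had 0.259. *F11r*, an immunoglobulin superfamily gene like *Vsig4*, had 84.8 TPM beside 41.3 for *Vsig4*, and *Vsig2* had 1.04. *Msr1* and *Scara5*, scavenger receptor genes related to *Marco*, had 3.82 and 6.08 TPM beside 28.1 for *Marco*. *Adgre4* had 3.70 and *Adgre5* 11.5 TPM beside 9.43 for *Adgre1*, and *Lamp1* and *Lamp2*, which encode lysosomal membrane proteins of the family of CD68 found in most cells, had 756 and 257 TPM beside 15.5 for *Cd68*.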

How the data were processed

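Per the study's methods, total RNA from murine liver was used for mRNA libraries (KAPA mRNA HyperPrep), and the authors mapped single-end reads with STAR against mm10 and ran DESeq2, both inside the RNA Express BaseSpace application. The submitters' processing notes also name HOMER. Versions, gene annotation and strand setting are not given in the sources used here. The signal used is the mean normalized count of the authors' deposited table, that is, counts divided by size factors and averaged over all libraries. The other columns of that table hold the authors' log2 fold changes, standard errors, Wald statistics, p-values, adjusted p-values and a status mark, and were not used. The 6 columns of counts per animal were not used because no name ties them to a sample. The edgeR quasi-likelihood test intended for the counts was therefore not run, and the 3 WT and 3 *Pai-1*+/- samples were not compared.

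Computed here were lengths from GENCODE M21 on GRCm38, matched by symbol for 23336 of 24421 genes (96.4% of the 12971 genes above a mean normalized count of 10, and 97.5% of the summed signal), length-scaled levels (TPM), ranks and list medians. The scaling was tested on simulated data. The named genes are the 9 markers and the members of the cell type lists, as well as genes whose exons overlap a marker and structural relatives chosen later. A gene of the list of ligands and transcription factors is not reported here. Markers and lists were chosen with earlier results of these data known. Depth per library was not analysed, and the precision of these means was not estimated. Alternatives were other gene lengths, no length, a total without the 10 highest genes, all genes above 0, and means or sums of lists. Python 3.11.15, NumPy 2.4.6, pandas 2.3.3 and Matplotlib 3.10.9 were used.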

Additional observations from a re-analysis of the deposited data

How the results depend on the processing

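The median length-scaled level of the 9 Kupffer cell markers, 18.1 TPM, was 18.06 with the longest transcript, 14.8 with the longest coding sequence and 22.3 with the total taken without the 10 highest genes. Without length it was 19.8 CPM. CPM is the mean normalized count scaled to a total of 1000000 over the genes with a length. Of the 36 pairs of markers, 35 kept their order with the longest transcript, 32 with the longest coding sequence, 31 without length and 36 with the other total. The Kupffer cell list was second of 8 cell type lists by median, also with the longest transcript and by mean or sum, and was at place 3 with the longest coding sequence and at place 3 without length. The median percentile of the markers rose from 66.7 to 75.4 when all genes above 0 were counted. Single levels were 0.811 to 0.997 times as high with the longest transcript and 0.494 to 0.899 times with the longest coding sequence (*Clec4f* 43.9 in place of 68.6 TPM), and 0.460 to 2.11 times without length, where *Csf1r* rose most. These ratios include a change of the total over all genes. *Cd5l*, *Clec4f*, *Marco*, *Timd4* and *Adgre1* are as long by longest transcript as by merged exons, so their fall comes from the total alone (*Cd5l* to 88.3 TPM). Genes without a coding sequence were left out of the coding total. No paired analysis was possible because no count column carries a replicate number or genotype. For the same reason the planned edgeR quasi-likelihood test of the genotypes was not run. Genotype fits with DESeq2, other filters and normalizations, a replicate block or a left-out mouse were not run either. The pooled means have no replicate error, and precision at low levels was not estimated.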
